A study of Mus musculus with 2 samples.

Results

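Intermediate filament genes of muscle, progenitor, mesenchymal, glial and nerve cells were followed in the fetal mouse palate. The members were 9 genes, namely Des, Nes, Vim, Gfap, Nefl, Nefm, Nefh, Prph and Ina, out of 18193 genes that had a probe set on the array. They were chosen by name, and every probe set that the platform annotation gave to exactly 1 of them was kept, which made 22 probe sets. The arrays were Affymetrix expression arrays of whole palate RNA from E18.5 fetuses of the BALB/c background. The study asks what skeletal muscle contributes to palate development. One array held wild-type palate. The other held palate labelled Myf5-/-:MyoD-/-, that is, null for the pair of transcription factors that commit cells to skeletal muscle, and is called the null-labelled array below. The symbol of MyoD is Myod1. The labels do not give the structure of the null alleles, nor how many fetuses went into a sample. With 1 array per genotype there was no replicate, so all differences are between these arrays and carry no p-value.

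Intermediate filaments are rope-like polymers that carry mechanical load, and each cell type builds them from its own proteins. Desmin ties the myofibrils of muscle to each other and to the membrane. Nestin is typical of dividing progenitors of nerve and muscle and of regenerating or immature fibres. Vimentin is the filament of mesenchyme and endothelium, and Gfap that of astrocytes and of some peripheral glia. The neurofilament light, medium and heavy chains, with alpha-internexin (Ina) and peripherin (Prph), fill the axons of neurons, and peripherin is most abundant in peripheral neurons.

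The 250 bases before the transcription start are shown for Des and Nes, the members with the lowest ratios, and for Vim, which was nearly equal on both arrays. They are RefSeq sequences of build GRCm38.p6, all on the plus strand. Capitals mark each match to the E-box letters CANNTG, the class of site that Myf5 and MyoD bind, searched on both strands.
Des, chr1:75360042-75360291: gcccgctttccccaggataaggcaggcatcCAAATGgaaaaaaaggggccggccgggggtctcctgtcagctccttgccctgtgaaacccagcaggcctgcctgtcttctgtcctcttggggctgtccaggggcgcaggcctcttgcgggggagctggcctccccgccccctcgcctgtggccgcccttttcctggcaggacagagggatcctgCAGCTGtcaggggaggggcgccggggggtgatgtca
Nes, chr3:87970843-87971092: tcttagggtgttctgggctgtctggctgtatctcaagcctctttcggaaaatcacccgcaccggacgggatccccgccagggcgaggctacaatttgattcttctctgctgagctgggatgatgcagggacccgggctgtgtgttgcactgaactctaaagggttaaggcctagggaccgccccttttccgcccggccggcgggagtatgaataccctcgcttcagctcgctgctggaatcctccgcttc
Vim, chr2:13574061-13574310: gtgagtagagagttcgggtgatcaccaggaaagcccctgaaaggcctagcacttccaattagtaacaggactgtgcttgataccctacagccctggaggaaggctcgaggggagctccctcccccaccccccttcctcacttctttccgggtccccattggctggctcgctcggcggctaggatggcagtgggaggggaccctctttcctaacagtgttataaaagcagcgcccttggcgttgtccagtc
The Des window held 2 matches. One of them, at bases 36 to 31 before the start, reads CAGCTG, and the other, at bases 220 to 215, reads CAAATG. The Nes and Vim windows held none, which says only that these letters are not in these windows. Such windows were given for 27025 genes, some with several. Of these 32851 windows, 66.2% held CANNTG and 13.0% held its special case CAGCTG, so a match is common. Among the 6 members with an entry, Ina also held 1 CAGCTG, and Gfap and Prph held no E-box. The expression values do not bear on whether a site is used.

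Signals are given after the arrays were brought to a common scale. Signals under 287, the floor, were set to it before log2 was taken, and a fold with 1 array under the floor is written as "at least". To count as measured, a probe set had to reach the 60th percentile of all signals, 658, on at least 1 array. By this filter 15 of the 22 member probe sets were measured, and 8 of the 9 members had at least 1 of them. Gfap had none. A gene was represented by its brightest probe set, the one with the highest mean log2 signal. Ratios are the null-labelled array over wild type. The log2 ratios of measured probe sets of one gene, over all genes, had a pooled SD of 0.51 (10190 probe sets of 4030 genes). It was 0.43 where the mean signal lay above 1479 and 0.58 where it lay below. That SD is a yardstick for probe and isoform effects only and does not cover differences between animals.

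The targeted genes and tissue markers were read first. Myod1 had signals of 1938 in wild type and 1663 on the null-labelled array, and its dimmer probe set 282 and 305. Myf5 had 517 and 531, under the level that counted as measured. The sources used here do not say if the probes target a removed stretch, so these values do not check the label. With Myod1 near equal and the muscle fibre genes still bright, it could not be determined from these arrays whether the sample matches its null label, and every ratio below compares the arrays as labelled. Palatal epithelium and mesenchyme were present on both arrays, with 8 of 8 epithelial and 12 of 12 mesenchymal markers measured and an epithelial median log2 ratio of -0.37. The oral keratins Krt4 and Krt13 were 4.75-fold and 3.03-fold lower on the null-labelled array. The basal keratins Krt14 and Krt5 had log2 ratios of -0.70 and -0.59. Epcam, an epithelial adhesion protein, had 0.85 with -1.42 in its other probe sets. The remaining markers Grhl2, Cdh1 and Trp63 had -0.16, -0.04 and 0.09, so that all 8 epithelial markers are named here. The skeletal muscle fibre list remained bright there, with summed signals of 239216 in wild type and 130200 on the null-labelled array. Over all 11238 measured genes the median log2 ratio was 0.07, and 43.7% of them had a ratio below 0. Counts of list genes above or below 0 are to be read beside that share.

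**Figure D1:**
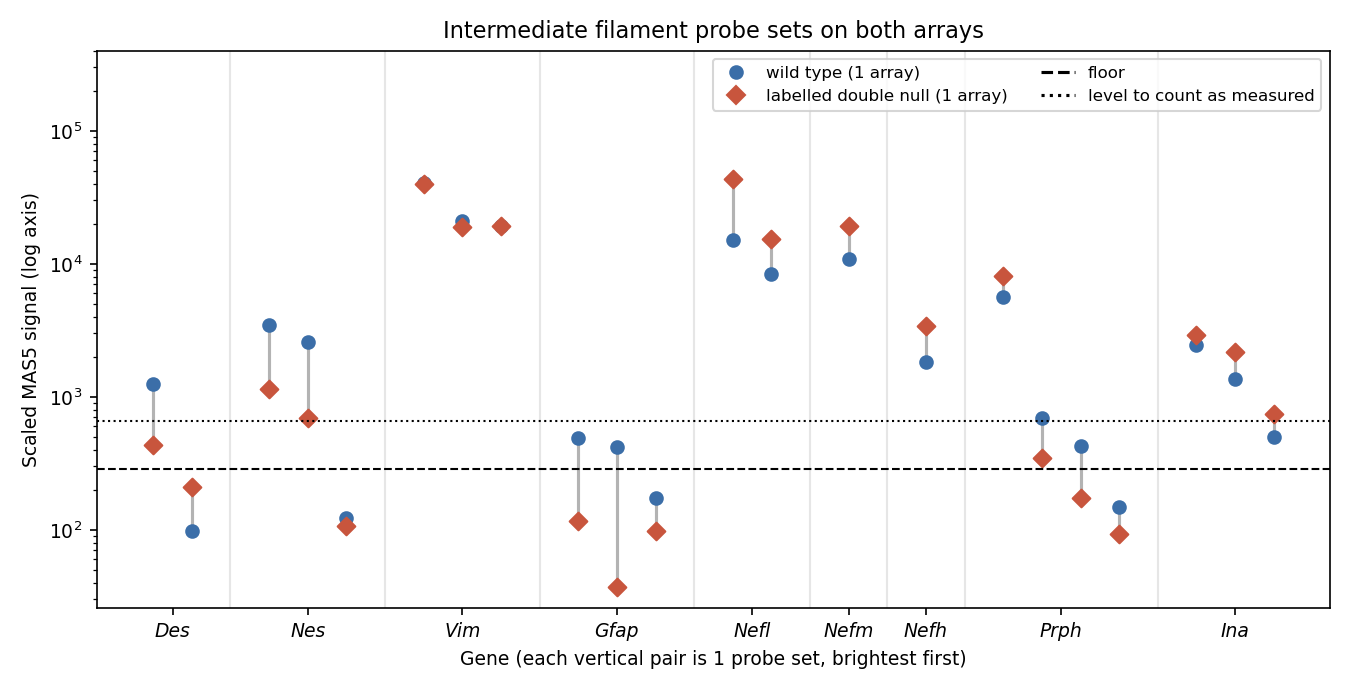
Scaled signal (log axis) of all 22 member probe sets on the wild-type array (circles) and the null-labelled array (diamonds), by gene, with the floor of 287 (dashed) and the level of 658 that counts as measured (dotted). The Des and Nes pairs that reach above the dotted line are wider apart than the Vim pairs, which nearly coincide. The diamond of that Des pair lies below the dotted line. The diamonds lie above the circles in every Nefl, Nefm, Nefh and Ina pair.

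The members did not all go in the same direction. The muscle and progenitor filaments Des and Nes were lower on the null-labelled array, vimentin was near equal, and the 5 neuronal filaments were higher by their brightest probe sets. By the 2-fold rule 2 of the 8 measured members were lower (Des and Nes), 1 was higher (Nefl) and 5 lay within 2-fold. The background was 4.22% of all measured genes past 2-fold downwards and 3.51% upwards, so 2 and 1 of 8 are above those shares, although 8 genes is a small number and no test was made. Des reached the measured level on the wild-type array alone, and 259 of the 474 genes called lower over all genes likewise reached it there alone. Of the 15 measured probe sets 3 were past 2-fold downwards (1 of Des, 2 of Nes) and 1 upwards (Nefl), against 4.52% and 3.68% of all measured probe sets. The balance of calls over all genes moved with the scaling. The lower share of calls was 54.6% here, 65.0% with the signals as deposited, and 74.5%, 79.3% and 87.2% with the scalings on reference genes. Those scalings moved the median of all genes by -0.15, -0.20 and -0.30 on the log2 scale. The same 3 members were past 2-fold under each of them. Among the reference genes Eef2, a translation elongation factor named here after its values were seen, was itself 2.88-fold lower (60886 and 21162), close to the Des difference.

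Des encodes desmin, the muscle intermediate filament. Its measured probe set, 1426731_at, read 1255 in wild type and 434 on the null-labelled array. The log2 ratio was -1.53, or 2.90-fold lower. Its size exceeds the between-probe-set SD of 0.51, and also the 0.58 for dim probe sets, of which this is one. Of measured genes 1.26% had a ratio as low or lower. With the floor raised to the 60th percentile the log2 ratio became -0.93, no longer past 2-fold. The second Des probe set, 1426732_at, read 98.6 and 208, under the floor on both arrays, and gives no ratio. Desmin therefore rests on 1 probe set, whose lower signal was above the floor but under the level that counts as measured.

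The skeletal muscle fibre list gave the setting for desmin. Of its 18 genes 17 were measured, all 17 had a log2 ratio below 0, and 6 were at least 2-fold lower, with a median of -0.93. Tnnc2, fast skeletal troponin C, was the 1 gene of that list with a lower ratio than Des (-1.69). Tnni1, slow troponin I, had -1.44, Ckm, muscle creatine kinase, -1.39, and Tnnt3, fast troponin T, -1.30. The Des ratio lay 0.60 below the median of the list on the log2 scale. In bulk tissue, fewer muscle cells and less RNA per cell cannot be told apart, and the part of the fibre content in the Des value was not tested.

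Desmin is also made by smooth muscle and pericytes, and these markers lay closer to 0. Of the 11 genes 7 were measured, with a median of -0.11, 5 below 0 and none past 2-fold. Under the other settings that median ran from -0.39 to -0.05, the lowest value being that of the scaling on all measured probe sets of the reference genes. Tagln, a smooth muscle actin-binding protein, had the largest difference at -0.94, and Kcnj8, a pericyte potassium channel, had -0.50. Acta2, smooth muscle actin, had -0.15 and Rgs5, a pericyte signalling regulator, 0.24 with 0.77 in its other probe sets. All 7 lay above Des, and the summed signal of the whole list was 62202 in wild type and 59812 on the null-labelled array.

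Nes encodes nestin. Its brightest probe set, 1449022_at, had signals of 3483 in wild type and 1150 on the null-labelled array, which is 3.03-fold lower (log2 ratio -1.60). The second, 1418289_at, had 2567 and 688, which is 3.73-fold lower (log2 ratio -1.90). Both measured Nes probe sets were thus past 2-fold in the same direction, and their log2 ratios differed by less than the SD of 0.73 that 2 probe sets of a gene would give for a difference. Neither of them has a listed accession in the platform annotation. The dimmest, 1453997_a_at, read 123 and 106, under the floor on both arrays. By the brightest probe set Nes ranked 130 from the lowest ratio of 11238 measured genes, and Des 142. The log2 ratios of Des and Nes differed by 0.07, again less than 0.73.

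The markers of cells that can make nestin did not all go the same way. Muscle precursor and regulator genes had a median log2 ratio of -0.07 over 9 measured genes of 11, with 1 at least 2-fold lower. That median was -0.25 and -0.35 under the scalings on the signals of the reference genes. Myf6, the late myogenic regulator, was at -1.12 (measured on the wild-type array alone), Myog, myogenin, at -0.99, Mymk, the fusion protein myomaker, at -0.39, and Met, the receptor that guides migrating precursors, at 0.42. Endothelial genes had a median of -0.44, with 8 of 10 below 0 and 3 at least 2-fold lower. Tie1, an endothelial receptor, was 3.35-fold lower (1054 and 315), Pecam1 at least 2.66-fold lower and Robo4 2.41-fold lower. Eng was at -0.69 with -0.36 in its other probe sets, while Emcn, endomucin, was at 0.51. The 3 called genes reached the measured level on the wild-type array alone, so the filter kept them through the array where they are high. Emcn reached it on the null-labelled array alone. With the filter at the 75th percentile the median was -0.24. Tie1 was the 1 measured endothelial gene with a lower ratio than Nes.

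Glial markers stood on the other side from nestin. Schwann cell and peripheral glia genes had a median log2 ratio of 0.53, with 9 of 12 measured genes above 0 and 2 at least 2-fold higher, and all 12 lay above Nes. The summed signals were 18292 in wild type and 14408 on the null-labelled array for the endothelial list, 18095 and 17996 for the precursor list, and 62779 and 86109 for the Schwann cell list. The part of each cell type in the Nes value was not tested.

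Vim encodes vimentin, and its 3 probe sets were bright and nearly level. 1438118_x_at had 40282 in wild type and 40007 on the null-labelled array. 1450641_at had 20908 and 18779, and 1456292_a_at had 19384 and 19335. Their log2 ratios were -0.0099, -0.15 and -0.0036, all smaller than the SD of 0.43 for bright probe sets, although 1 array a genotype does not show that vimentin is equal in both genotypes. An x or a in a probe set name marks probes that may match other genes or several transcripts, and the probe set without that mark had the lowest of the 3 ratios.

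Mesenchymal genes lay around the same value as vimentin. By the brightest probe sets the list had 12 of 12 genes measured, a median log2 ratio of 0.04, 7 above and 5 below 0. None was past 2-fold in these. That median turned to -0.24 under the scaling on all measured probe sets of the reference genes. Col1a1, the main collagen chain of bone and dermis, had 0.74, but 1.20, past 2-fold, in its other probe sets. Col1a2 had 0.25 with 0.16 in its others. Lum, the collagen-binding proteoglycan lumican, had -0.25, and S100a4, a calcium-binding protein of fibroblasts, -0.65. On the log2 scale Des was 1.52 and Nes 1.59 below Vim, and Nefl was 1.52 above it. These differences within the pair of arrays do not depend on a scaling factor.

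Gfap encodes the filament of astrocytes, and its signal was too low to count as measured. 1426508_at had 491 in wild type and 117 on the null-labelled array, at least 1.71-fold lower. 1440142_s_at had 418 and 36.9, at least 1.46-fold lower. 1426509_s_at read 174 and 97.7, under the floor on both. All 3 readings were lower on the null-labelled array, but at these signals the array gives bounds at most. Of 12 astrocyte and radial glia markers 8 were measured, with a median of 0.49. Slc1a2, the main glutamate transporter of astrocytes, was under the floor on both arrays, and is named after its values were seen, whereas Aqp4, a water channel, was 2.20-fold higher (its other probe sets gave 0.19), and Fabp7, which is also in the Schwann cell list, was 2.03-fold higher. Glul, glutamine synthetase, had 0.76 with -0.72 in its others, and Slc1a3, the glial glutamate transporter, had -0.87 with -1.10. The summed signal of the list was 43244 and 67216.

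**Figure D2:**
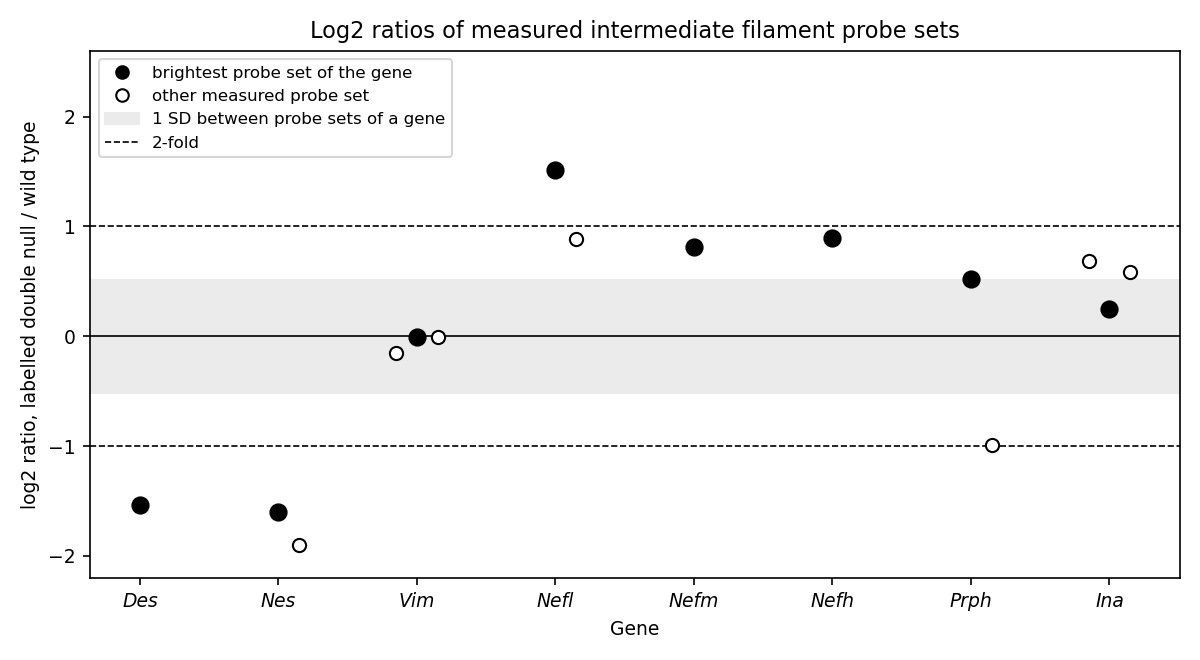
Log2 ratio (null-labelled array, drawn as labelled double null, over wild type) of the 15 measured member probe sets by gene; filled points are the brightest probe set of a gene, open points the others, the grey band is 1 SD (0.51) on either side of 0 and dashed lines are 2-fold. Des and both Nes points lie below the lower line, the 3 Vim points lie in the band, and Prph has 1 point at 0.52 and 1 at -0.99.

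Nefl, the neurofilament light chain on which the other chains assemble, was the member with the highest ratio. Its brightest probe set, 1454672_at, had signals of 15183 in wild type and 43294 on the null-labelled array, which is 2.85-fold higher (log2 ratio 1.51). The second, 1426255_at, had 8349 and 15401, which is 1.84-fold higher (log2 ratio 0.88). Both were higher, but only the first passed 2-fold. Their log2 ratios differed by 0.63, less than 0.73 but more than the 0.61 that bright probe sets give for a difference. By the first, Nefl ranked 71 from the highest of 11238 measured genes.

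The medium and heavy chains were each read by 1 probe set and were both higher by less than 2-fold. Nefm, 1422520_at, had 10951 in wild type and 19237 on the null-labelled array, which is 1.76-fold higher (log2 ratio 0.81). Nefh, 1424847_at, had 1837 and 3416, which is 1.86-fold higher (log2 ratio 0.89). Their log2 ratios differed by 0.08 and were short of 2-fold by 0.19 and 0.11. Under the 13 other settings Nefm ran from 0.53 to 0.81 and Nefh from 0.61 to 0.89. None brought either gene to 2-fold, but the settings could hardly do so. Those of floor level, filter and probe set choice left both values as they were, and the rest only lowered them. Of all measured genes 6.38% had a ratio as high as Nefm or higher and 4.90% as high as Nefh or higher. The Nefl ratio was above those of Nefm and Nefh by 0.70 and 0.62, differences smaller than the SD of 0.73 over all probe sets but larger than the 0.61 for bright ones, as these 3 are. In the RefSeq annotation Nefl and Nefm are on the same chromosome with no protein-coding gene between them.

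Ina, alpha-internexin, a partner of the neurofilament chains, was higher by a smaller amount in all 3 of its probe sets. 1418178_at had 2445 in wild type and 2898 on the null-labelled array (log2 ratio 0.25). 1448991_a_at had 1354 and 2181 (0.69), and 1448992_at had 496 and 744 (0.59). None passed 2-fold. The ratio of the brightest probe set was smaller than the SD of 0.51, and it turned to -0.04 under the scaling on all measured probe sets of the reference genes.

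Prph, peripherin, was split by probe set. 1422530_at had 5642 in wild type and 8110 on the null-labelled array, which is 1.44-fold higher (log2 ratio 0.52). 1420256_x_at went the other way, with 694 and 349, which is 1.99-fold lower (log2 ratio -0.99). The other two did not count as measured. 1449797_x_at had 425 and 172, at least 1.48-fold lower, and 1449796_at had 149 and 93.0, under the floor on both arrays. The bright probe set is annotated to the RefSeq transcript, while the 3 others have no listed accession. The mean over both measured Prph probe sets was -0.23. Of the 9 measured probe sets of the 5 neuronal members, this Prph probe set reached the measured level on the wild-type array alone and the dimmest of Ina on the null-labelled array alone, so the filter bears on their signs. The other 7 reached it on both arrays and had log2 ratios above 0.

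Neuronal marker genes as a whole were also higher by their brightest probe sets, and the neurofilaments lay within their spread. Of 15 neuronal genes 14 were measured, 13 were above 0 and 7 at least 2-fold higher, with a median log2 ratio of 1.0. Elavl4, a neuronal RNA-binding protein, had 1.75 with 0.72 in its other probe sets, and Snap25, a synaptic fusion protein, 1.56 with 1.54. Rbfox3, the antigen NeuN, had 1.39, Stmn2, a growth cone protein, 1.19 with 0.82, and Gria2, a glutamate receptor, -0.24. Of 6 genes with other measured probe sets, 4 were above 0 and 2 below 0 in these. Syp, named after its values were seen, had -1.30 there against 0.0073 in its brightest. The summed signal of the list was 40190 in wild type and 82849 on the null-labelled array. Nefl was above 12 of the 14 genes, Nefm and Nefh above 6 each, and Prph and Ina above 2 each. The part of neuron content in the neurofilament values was not tested.

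Genes of the axonal cytoskeleton, of which 18 of 19 were measured, had a median of 0.56. By their brightest probe sets all 18 were above 0 and 5 at least 2-fold higher. The lowest ratio was 0.05, so the count above 0 depends on the scaling. Of 9 genes with other measured probe sets, 7 were above 0 and 2 below 0 in these. Kif5a, the motor that carries neurofilaments along axons, was 3.24-fold higher (1730 and 5601). Map1b, a microtubule-associated protein of growing axons, had 1.31 with 0.19 in its other probe sets, Mllt11 1.23 and Stmn2, which is in both lists, 1.19. Nefl was above 17 of the 18, and Kif5a was the exception. Nefm and Nefh were each above 13, Prph above 8 and Ina above 3.

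Markers of sensory and autonomic neurons, the cells in which peripherin is most abundant, were uneven. Of 16 genes 8 were measured, with a median of 0.85 and 3 at least 2-fold higher. Ret, a growth factor receptor, was 3.15-fold higher, Pou4f1, a transcription factor of sensory ganglia, 3.07-fold higher, and Trpv1, the heat-gated channel of pain fibres, at least 2.46-fold higher (measured on the null-labelled array alone). Avil, advillin of sensory neurons, had 0.89 and Ntrk2, a neurotrophin receptor, -0.59, with 0.84 in its other probe sets. The sympathetic enzymes Th and Dbh, chosen after their values were seen, were not measured, with 456 and 263 for Th and 533 and 488 for Dbh. The summed signal of the list was 25088 in wild type and 34428 on the null-labelled array.

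Markers of olfactory neurons, cells of the neighbouring nasal epithelium, were higher as well. All 12 were measured, 11 were above 0 and 2 at least 2-fold higher, with a median of 0.77 and summed signals of 20811 and 31073. Neurog1, a neuronal determination factor, had 1.48, Cnga2, the olfactory ion channel, 1.13 and Gng13 0.97. Gnal, the olfactory G protein, had 0.96 with 1.89 in its other probe sets, and Adcy3 -0.25 with -0.34. Both called genes, Neurog1 and Cnga2, reached the measured level on the null-labelled array alone. So did Omp, named after its values were seen, with 560 in wild type and 706 on the null-labelled array (log2 ratio 0.34). In the Schwann cell list Dhh, a signal from Schwann cells to the nerve sheath, was 2.24-fold higher and Ngfr had 0.82. Mal had 0.85 with 0.30 in its other probe sets, and Sox10 -0.47 with -0.50. What share of nasal or nerve tissue each sample held was not tested.

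The remaining filament genes and the proteins that bind or modify filaments showed no 2-fold difference by their brightest probe sets. Other measured probe sets did pass it for Iffo2 (-1.02, against 0.12 in the brightest) and Mtm1, myotubularin (1.39, against 0.20), both named after their values were seen. Of 9 other non-keratin filament genes 7 were measured, with a median log2 ratio of -0.05 and 5 below 0. That median was -0.57 without suffixed probe sets, -0.45 as the mean over all measured probe sets and -0.34 under the scaling on all measured probe sets of the reference genes. Synm, synemin, which joins desmin and vimentin filaments, had 0.64 with 0.84 in its other measured probe sets, in the direction opposite to Des. Bfsp2, a filament of the lens, had -0.68, Iffo1 -0.60 and Lmnb2, a nuclear lamin, -0.54. Iffo1 and Lmnb2 reached the measured level on the wild-type array alone, so the filter bears on their signs. Sync, syncoilin, a desmin partner in muscle, chosen after its values were seen, had 503 and 504 and was not measured.

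Linkers and chaperones of filaments had 14 of 15 genes measured, a median of 0.22, with 10 above 0 and 4 below. The median turned to -0.06 under the scaling on all measured probe sets of the reference genes. Evpl and Ppl, envoplakin and periplakin of epithelial junctions, were at -0.73 and 0.60. Dsp, desmoplakin, was at -0.39, with 0.24 in its other probe sets, and Hspb1, a small heat shock protein, at 0.30 with 0.40. Of 12 kinases that phosphorylate filaments 7 were measured, with a median of 0.41 and 6 above 0. Gsk3b was at 0.80 with 0.17 in its other probe sets, and Prkaca at 0.54 with -0.13. Aurkb, which acts on vimentin in mitosis, was at 0.45 with 0.13 in its others. Cdk5r1, the neuronal activator of Cdk5, was at 0.41 and Cdk1 at -0.19.

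**Figure D3:**
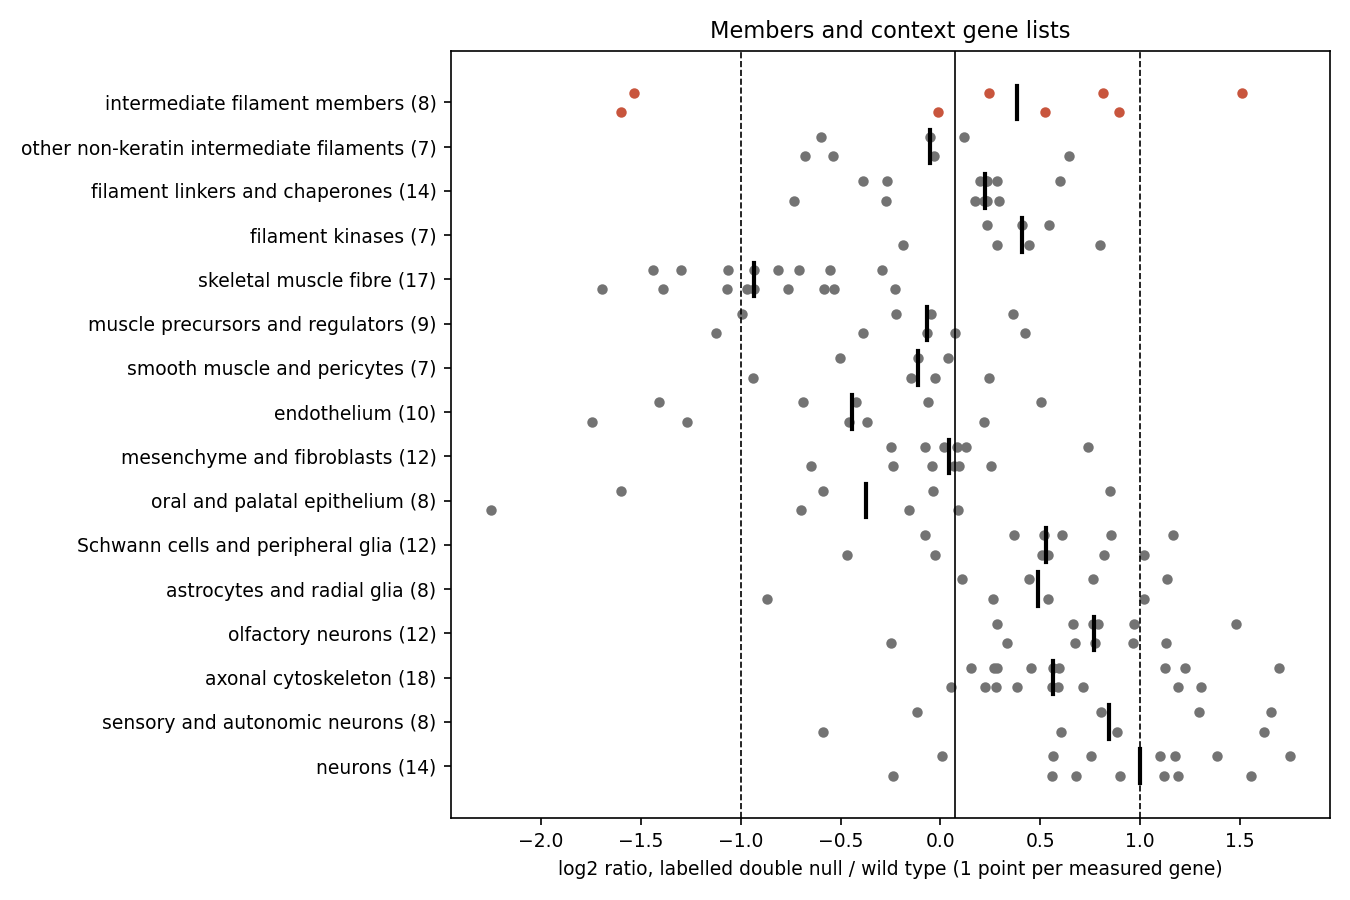
Log2 ratio of each measured gene (points) in the members and in 15 context lists, with the number measured in parentheses, list medians as thick bars, the median of all measured genes (0.07) as a thin line and 2-fold as dashed lines. The members span from -1.60 to 1.51, the skeletal muscle fibre genes all lie below 0 with a median of -0.93, and the neuronal genes have a median of 1.0.

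Set against each other, the neuronal and muscle filaments were far apart on this pair of arrays. The log2 ratio of Nefl exceeded that of Des by 3.05, an 8.26-fold unequal change, and that of Nes by 3.11. These gaps exceed the SD of 0.73 for a difference between probe sets of a gene. However, Nefl had the highest and Des and Nes the lowest ratios of the measured members. The genes at the ends were thus picked by the same ratios, and the SD is no test of their gap. Any gap between genes stays the same under a change of scaling factor. Within the 5 neuronal members the order of ratios by the brightest probe sets was Nefl, Nefh, Nefm, Prph and Ina. Neighbours in that order differed by less than 0.73. The step from Nefl to Nefh, 0.62, was above the 0.61 for bright probe sets, and the later steps were below it. By those probe sets Nefl lay 0.99 above Prph and 1.27 above Ina, more than either SD. Nefh lay 0.65 above Ina, more than 0.61. The order depended on the choice of probe set. As the mean over all measured probe sets Nefl had 1.20, Ina 0.51 and Prph -0.23, so Ina and Prph changed places. The second Nefl probe set, at 0.88, was no higher than Nefh.

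**Figure D4:**
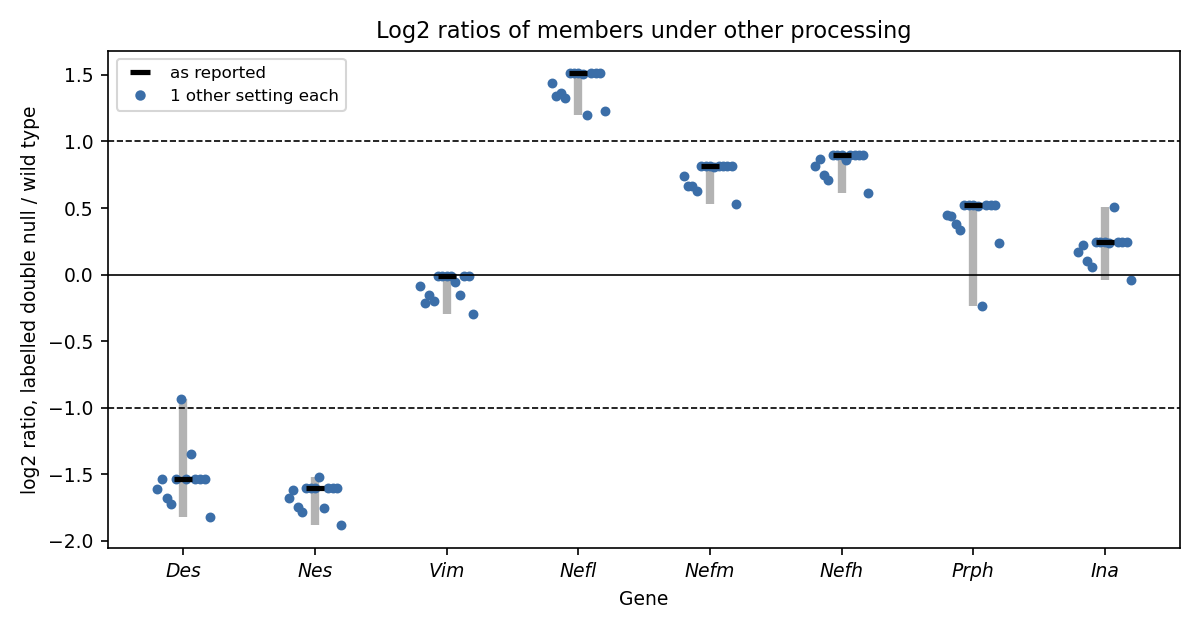
Log2 ratio of the 8 measured members as reported (black bars) and under each other setting (points; the grey bar is their range), with 2-fold as dashed lines. Nes stays below the lower line and Nefl above the upper line at every setting shown, Des crosses to -0.93 at 1 setting, and Prph and Ina each have 1 point below 0.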

How the data were processed

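The deposited values were linear signal intensities that the authors obtained with MAS5 (submitters' processing notes), from cRNA of 6 µg total RNA per sample, per the labels' protocols. The sources used here give no version. The 45101 probe sets had a mean of 1500.01 on both arrays after trimming 2% at either end. The 64 control probe sets were left out. Arrays were scaled on the median of the probe sets in the upper part (50th percentile and up) of both (factors 0.974 and 1.03), floored at the 40th percentile and put on a log2 scale. Genes counted as measured at the 60th percentile. Probe sets were named from the platform annotation, and all 22 member identifiers were in the RefSeq table of GRCm38.p6. No test between genotypes was possible, so a size of 2-fold was used. The number of arrays limits the precision. Members, lists and rules were chosen with earlier results of these data known. Named genes were all members, Myf5 and Myod1, and from each list up to 4 measured genes with the largest absolute ratio plus the furthest the other way, unless said otherwise. The reference gene list, used only for scaling, had 12 of 16 genes measured and a median log2 ratio of 0.14, with Eef2 at -1.52. Steps were tested on simulated data. Python 3.11.15, numpy 2.4.6, pandas 2.3.3 and matplotlib 3.10.9 were used.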

Additional observations from a re-analysis of the deposited data

How the results depend on the processing

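The 8 measured members were recomputed under 13 other settings of scaling, floor, probe set choice and filter, 1 of them (scaling on all measured probe sets of the reference genes) chosen after seeing the data. Of 133 such values and counts of members, 126 stayed within the SD between probe sets or within 1.5 times the count. That number is not a measure of robustness. The lower floor, no floor and the filters could not alter a ratio of signals above the floor. A scaling factor shifts all members alike. The Ina value of -0.04 was counted as staying, since it moved by less than the SD. The floor at the 60th percentile moved Des to -0.93 and left 1 member at least 2-fold lower, since the floor then lies above the Des signal of the null-labelled array. The filter at the 75th percentile removed Des and also left 1. The mean over all measured probe sets turned Prph to -0.23, since its second probe set is lower. At 1.5-fold 3 members were higher, at 3-fold 1 was lower and 0 were higher. Nes ranged from -1.88 to -1.52 and Nefl from 1.20 to 1.51. Over all genes, 474 lower and 394 higher became 264 and 257 with the floor at the 60th percentile, 692 and 237 when scaled by the reference genes' median ratio, 776 and 202 by their median signal, and 1007 and 148 by the median of all their measured probe sets. List medians ran from -1.22 to -0.91 for muscle fibre, -0.72 to -0.24 for endothelium, -0.66 to -0.37 for epithelium, 0.72 to 1.11 for neurons, 0.28 to 0.58 for axonal cytoskeleton, 0.52 to 0.85 for sensory neurons, 0.49 to 0.77 for olfactory neurons, 0.25 to 0.61 for Schwann cells, 0.21 to 0.54 for astrocytes and 0.12 to 0.43 for kinases. No paired analysis was possible because each genotype had 1 array. Signals near the floor, as in Gfap, allow bounds only.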
